A study of Homo sapiens with 4 samples.

Results

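Chemokines are small secreted proteins that guide leukocytes through receptors on their surface, and this account covers their genes. Members were taken by symbol, as loci whose names begin with CCL or CXCL and a digit, plus CX3CL1, IL8, PPBP, PF4, PF4V1, XCL1 and XCL2. They came to 46 genes on 47 lines of the files, out of 22679 named genes on 26468 lines. Of these, 17 reached an expression of 1 FPKM (a fragment count divided by transcript length and by library size) in at least 1 library. Another 13 stayed between 0 and 1 FPKM, with CXCL16 the highest at 0.891 FPKM, and 16 were listed at 0 in all 4 libraries. The 12 genes that passed 1 FPKM in OIS alone entered the 17 through the group where they were high.

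RNA-seq of poly(A) RNA was made from the human lung fibroblast line IMR90 at passage 16, and each of the 4 groups has a single library. The growing cells carried the empty retroviral vector pBabe and were taken at day 13 after infection. Oncogene-induced senescence (OIS) came from cells that carried ER:RasV12, a form of H-RasV12 that tamoxifen switches on, given 10 nM tamoxifen for 8 days. The last 2 groups expressed H3.3cs1, a cleaved form of histone H3.3 with a Flag tag at its C-terminus, from a retrovirus, and were taken at day 3 (early) and day 13 (late) after infection. Without replicates no difference has a replicate check or a p-value. OIS differs in construct and drug from growing and from H3.3cs1 late alike, and its day after infection is not in the labels. No library used here is of vector cells given tamoxifen, of ER:RasV12 cells without it, or of vector cells at day 3. Inducer, drug, infection and time therefore cannot be told apart for OIS, nor can construct and day for H3.3cs1 early against growing. H3.3cs1 late and growing share day 13 and passage 16, with no tamoxifen listed, and by the labels differ in construct. The oncogene's gene HRAS stood at 3153 FPKM in OIS and between 41.9 and 49.8 FPKM in the other 3 libraries. H3F3B, which encodes H3.3, stood at 105 FPKM in growing cells, 90.5 with OIS, 229 on day 3 and 450 on day 13 of H3.3cs1. H3F3A, the other H3.3 gene listed, stood at 190, 236, 130 and 132 FPKM in the same libraries, and which H3.3 gene the construct carries is not in the labels.

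Chemokines act through G protein-coupled receptors, and which leukocytes answer depends on the receptor. CXC chemokines with a Glu-Leu-Arg motif before their first cysteines, such as IL8 (CXCL8), bind CXCR1 and CXCR2 and draw neutrophils. CC chemokines such as CCL2 bind CCR2 and draw monocytes, and CXCL12 binds CXCR4 and retains stem and immune cells in stroma. Chemokines are a known part of the secretory phenotype of senescent fibroblasts, where NF-kappaB and C/EBP-beta act on their promoters.

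The promoters of 9 members that rose in OIS are shown first, because their shared letters can be read there, and that of CXCL12, the member that fell, stands beside them. RefSeq promoters (build GRCh38.p14, 250 bases before to 50 after the start) were matched for 31 of the 46 genes, IL8 under its present symbol CXCL8. The files use hg19 and hold no coordinates, so the positions here belong to the RefSeq table alone. Each line gives the 180 bases that end just before the start, read 5′ to 3′ on the gene's strand. Capitals mark matches to the searched motifs and, in IL8 alone, a 9-base stretch that was picked after the sequences were seen.
IL8, chr4:73740389-73740568, + strand: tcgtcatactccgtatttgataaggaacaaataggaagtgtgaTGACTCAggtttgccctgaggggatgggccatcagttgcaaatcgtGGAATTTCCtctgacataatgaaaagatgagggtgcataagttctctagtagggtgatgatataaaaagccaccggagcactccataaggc
CXCL1, chr4:73869213-73869392, + strand: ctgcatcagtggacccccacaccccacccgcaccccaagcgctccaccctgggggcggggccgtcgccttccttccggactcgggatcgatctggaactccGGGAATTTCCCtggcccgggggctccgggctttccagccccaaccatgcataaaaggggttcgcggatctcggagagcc
CXCL2, chr4:74099196-74099375, - strand: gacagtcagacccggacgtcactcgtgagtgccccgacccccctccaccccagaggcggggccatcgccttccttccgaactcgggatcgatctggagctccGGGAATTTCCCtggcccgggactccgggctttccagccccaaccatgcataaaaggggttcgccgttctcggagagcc
CXCL3, chr4:74038690-74038869, - strand: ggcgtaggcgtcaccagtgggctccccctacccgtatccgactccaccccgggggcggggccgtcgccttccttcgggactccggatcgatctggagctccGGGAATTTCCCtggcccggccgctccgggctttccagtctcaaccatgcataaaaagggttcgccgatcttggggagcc
CXCL5, chr4:73998678-73998857, - strand: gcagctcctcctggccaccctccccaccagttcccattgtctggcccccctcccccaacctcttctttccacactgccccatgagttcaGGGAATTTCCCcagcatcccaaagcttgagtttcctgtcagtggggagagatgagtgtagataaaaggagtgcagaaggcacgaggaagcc
CXCL6, chr4:73836498-73836677, + strand: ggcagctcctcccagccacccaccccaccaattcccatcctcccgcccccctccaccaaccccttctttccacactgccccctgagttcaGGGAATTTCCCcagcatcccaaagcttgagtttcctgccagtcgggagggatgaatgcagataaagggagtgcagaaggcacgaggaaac
CXCL10, chr4:76023498-76023677, - strand: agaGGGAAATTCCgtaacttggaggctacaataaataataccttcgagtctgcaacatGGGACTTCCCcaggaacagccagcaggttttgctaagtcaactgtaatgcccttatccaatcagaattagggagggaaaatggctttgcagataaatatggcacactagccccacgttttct
CXCL11, chr4:76036071-76036250, - strand: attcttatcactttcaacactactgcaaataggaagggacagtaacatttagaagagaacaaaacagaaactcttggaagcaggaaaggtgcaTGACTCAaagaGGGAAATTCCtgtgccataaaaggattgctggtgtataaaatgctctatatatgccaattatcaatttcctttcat
CCL20, chr2:227813662-227813841, + strand: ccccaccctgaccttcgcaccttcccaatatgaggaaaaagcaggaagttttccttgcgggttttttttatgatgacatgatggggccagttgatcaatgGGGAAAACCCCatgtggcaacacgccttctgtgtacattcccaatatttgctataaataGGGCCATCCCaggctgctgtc
CXCL12, chr10:44385098-44385277, - strand: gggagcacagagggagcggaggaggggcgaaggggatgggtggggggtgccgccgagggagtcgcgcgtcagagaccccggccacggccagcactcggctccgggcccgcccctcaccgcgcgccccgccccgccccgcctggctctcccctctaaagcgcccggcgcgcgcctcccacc

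The motifs searched on both strands were form 1 of the kappaB site (GGG, any 3 bases, then TTCC), form 2 (GGG, any 3 bases, then TCCC) and the AP-1 site TGANTCA. The kappaB forms can overlap each other. Form 1 was held by 10 of the 31 matched genes and by 6.52% of the 35116 RefSeq promoters. Form 2 was held by 4 of the 31 and by 7.59% of all promoters, and either form by 12 of the 31 and by 13.0% of all. Of the 12 members that were higher in OIS, 11 had a promoter and 8 of these held a kappaB form. Of the other 34 members, 20 had a promoter and 4 held one. The AP-1 site was in 3 of the 11 and 4 of the 20, and in 7.71% of all promoters.

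CXCL1, CXCL2, CXCL3, CXCL5 and CXCL6 carried the same 10 letters, GGGAATTTCC, which begin at positions -79, -78, -79, -91 and -90 from the start. Those letters were picked as the most common form 1 match among these same member promoters, and 0.145% of all RefSeq promoters hold them. Their frequency among the members follows in part from that choice, as does that of the 9 letters below. The last 9 of them, GGAATTTCC, were in 8 member promoters and in 0.461% of all; in IL8 they begin at position -91, where the leading G is not present and form 1 gave no match. CXCL10 and CXCL11 held form 1 as GGGAAATTCC, which holds the 9 letters on its other strand. CCL20 held overlapping matches to both forms that begin at positions -80 and -79, and a further form 2 match at -21. No kappaB or AP-1 letters were in the windows of CCL3 or CXCL12, and CCL7 had an AP-1 match only. These promoters are not independent, since neighbouring genes are copies of each other. CXCL1 and CXCL2 shared an identical run of 42 bases in the windows shown, CXCL5 and CXCL6 one of 45, while CXCL1 and CXCL5 shared 11. A match is a description of letters and was not tested as a binding site.

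**Figure D1:**
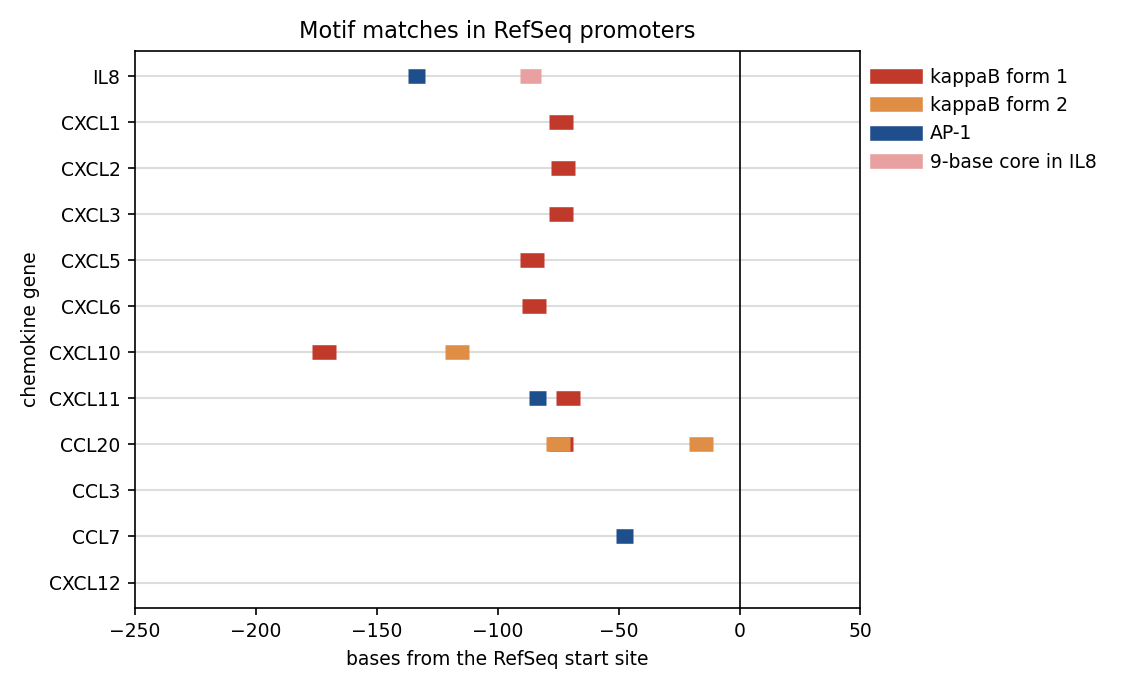
Positions of motif matches in the RefSeq promoters of 11 members that were higher in OIS and of CXCL12; the x axis is distance in bases from the start site and each row is a gene. Red and orange blocks are the kappaB forms, dark blue the AP-1 site and pink the 9-base stretch of IL8; the blocks of CXCL1, CXCL2, CXCL3, CXCL5 and CXCL6 lie between positions -91 and -69.

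In OIS the neutrophil chemokines, near 0 in growing cells except for IL8, were among the genes with the largest rises. Differences were taken on log2(FPKM + 1), a scale that shrinks changes of weakly expressed genes, and a gene is called higher or lower at 2-fold or more on that scale. By this rule 12 of the 46 members were higher in OIS than in growing and 1 was lower; in bulk RNA fewer expressing cells and less RNA per cell cannot be told apart. Over the 12183 named genes with at least 1 FPKM in a library, 9.13% were higher and 8.17% lower, and over all 22679 named genes, unfiltered like the 46 members, 4.9% were higher and 4.39% lower. With a pseudocount of 0.1 FPKM in place of 1, 18 members were higher and 3 were lower. The added higher ones were CCL4, CX3CL1, CXCL9, PF4, PF4V1 and PPBP. Shares over all genes were not taken with that pseudocount, so these counts have none beside them. The median difference of the 46 members was 0, with 17 of them equal in both libraries, and that of all 22679 named genes was also 0. Summed chemokine expression was 114 FPKM in growing and 8224 FPKM in OIS, which is 0.0260% and 1.59% of the FPKM of all named genes.

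**Figure D2:**
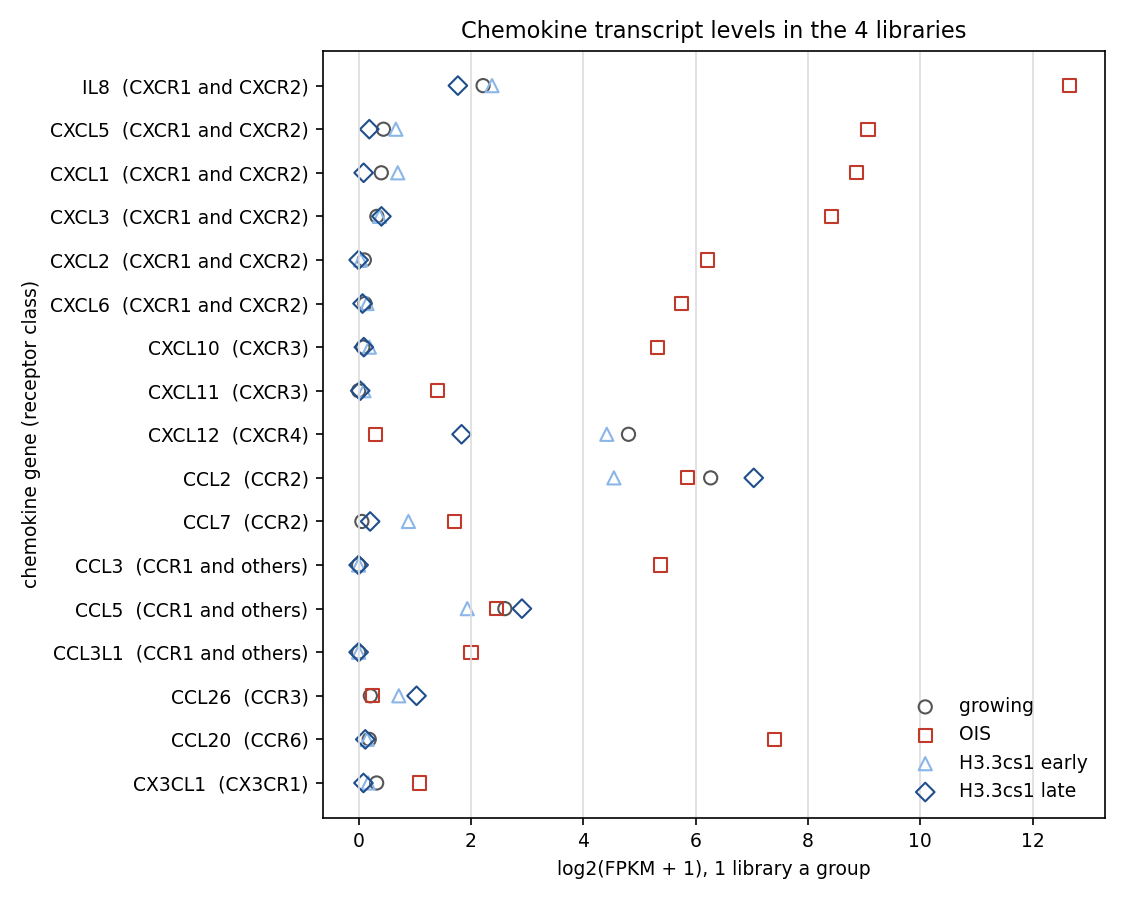
Transcript level on a log2(FPKM + 1) axis of the 17 members with at least 1 FPKM in a library, with receptor class in brackets and 1 open symbol per library. The OIS symbol of IL8 stands for 6433 FPKM, far right of the other libraries, while for CXCL12 the OIS symbol (0.236 FPKM) lies left of the other 3.

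Of 7 ligands of CXCR1 and CXCR2, 6 were higher in OIS, and PPBP stayed under 1 FPKM. IL8, the main neutrophil attractant of human tissues, was at 3.65 FPKM in growing cells, 6433 with OIS, 4.19 on day 3 and 2.40 on day 13 of H3.3cs1, and its 1385-fold rise in OIS ranked 1 among the 12183 genes. CXCL5, which acts on CXCR2, was at 0.359, 536, 0.583 and 0.141 FPKM in these 4 libraries and rose 396-fold. CXCL1, first known as a melanoma growth-stimulating factor, was at 0.323, 467, 0.620 and 0.0636 FPKM and rose 354-fold. CXCL5, CXCL1 and CXCL3 ranked 5, 6 and 7 by rise, so 4 chemokines were among the 7 largest rises of the 12183 genes. These ranks are on the log2(FPKM + 1) scale, and none was taken on plain ratios or with another pseudocount.

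CXCL3, a close copy of CXCL1, was at 0.252 FPKM in growing cells, 341 with OIS, 0.294 on day 3 and 0.325 on day 13 of H3.3cs1, a 273-fold rise in OIS. CXCL2, the remaining copy, was at 0.0728, 73.3, 0.0252 and 0 FPKM and rose 69.2-fold. CXCL6, which binds both CXCR1 and CXCR2, was at 0.0809, 52.7, 0.108 and 0.0493 FPKM and rose 49.6-fold. The order of FPKM in OIS was thus IL8, CXCL5, CXCL1, CXCL3, CXCL2 and CXCL6, and IL8 stood 12.0 times above CXCL5. Plain ratios of FPKM were larger for these genes, 1765 for IL8 and between 650 and 1496 for CXCL5, CXCL1, CXCL3, CXCL2 and CXCL6. PPBP, the platelet member of the class, reached 0.346 FPKM in OIS and was listed at 0 in growing. Reads shared between copies may have been divided in ways the files do not show: of the 50-base windows of the longest GENCODE transcript of CXCL2, 9.24% also occur in CXCL1 or CXCL3, against 5.73% for CXCL1, 5.26% for CXCL3 and 0 of 1656 windows for IL8 against its 5 relatives.

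Ligands of CXCR3 were mixed, with 2 higher in OIS and the rest under 1 FPKM. CXCL10, an interferon-inducible ligand of CXCR3 that draws T cells, was at 0.0541 FPKM in growing cells, 39.0 with OIS, 0.142 on day 3 and 0.0662 on day 13 of H3.3cs1, a 38.0-fold rise in OIS (plain ratio 722). CXCL11, which binds the same receptor, was listed at 0 in growing, at 1.65 FPKM in OIS, 0.0678 in early and 0.0197 in late. The third of these neighbours, CXCL9, reached only 0.139 FPKM in OIS, and the platelet factors PF4 (0.395 FPKM) and PF4V1 (0.305 FPKM) also stayed below 1.

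CCL20, the ligand of CCR6 on Th17 and dendritic cells, was at 0.140 FPKM in growing cells, 169 with OIS, 0.109 on day 3 and 0.0857 on day 13 of H3.3cs1, and rose 149-fold (plain ratio 1208). It was the highest CC chemokine of OIS. CCL3, a ligand of CCR1 that draws monocytes and T cells, was at 40.6 FPKM in OIS and listed at 0 in the other 3 libraries. CCL3L1, a near copy of CCL3, summed to 3.00 FPKM over its lines in OIS and was listed at 0 elsewhere. Since 9.88% of the 50-base windows of CCL3 occur in CCL3L1, the division between them is uncertain. CCL4, the usual partner of CCL3, was at 0.455 FPKM in OIS and at 0 elsewhere, and its copies CCL4L1 and CCL4L2 were at 0 in all 4.

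The monocyte chemokines did not move as a group. CCL2, the leading CCR2 ligand and the highest chemokine of growing cells, was at 76.1 FPKM in growing cells, 57.1 with OIS, 22.3 on day 3 and 130 on day 13 of H3.3cs1, so OIS lay 1.33-fold below growing, within 2-fold. CCL7, its neighbour in the genome and also a CCR2 ligand, was at 0.0409, 2.27, 0.848 and 0.153 FPKM and was 3.14-fold higher in OIS (plain ratio 55.4). CCL13, a further CCR2 ligand, was at 0.226 FPKM in growing cells and listed at 0 with OIS, and CCL8 was at 0 throughout. CCL5 (RANTES), which draws T cells, was at 5.08, 4.47, 2.82 and 6.50 FPKM, all within 2-fold of growing.

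CXCL12, the stromal ligand of CXCR4, was the 1 member that was lower in OIS. It was at 27.0 FPKM in growing cells, 0.236 with OIS, 20.4 on day 3 and 2.56 on day 13 of H3.3cs1, so growing and early were high and OIS was lowest. On the log2(FPKM + 1) scale it was 22.6-fold lower in OIS, rank 16 among the falls of all genes, while the plain ratio of FPKM was 114. CX3CL1, a membrane-bound chemokine that is shed to act on CX3CR1, was at 0.249 FPKM in growing cells, 1.12 with OIS, 0.124 on day 3 and 0.0613 on day 13 of H3.3cs1, a 1.70-fold difference in OIS that stayed under the rule but passed it with a pseudocount of 0.1. CXCL16, the other membrane-bound chemokine, was at 0.394, 0.131, 0.891 and 0.514 FPKM.

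**Figure D3:**
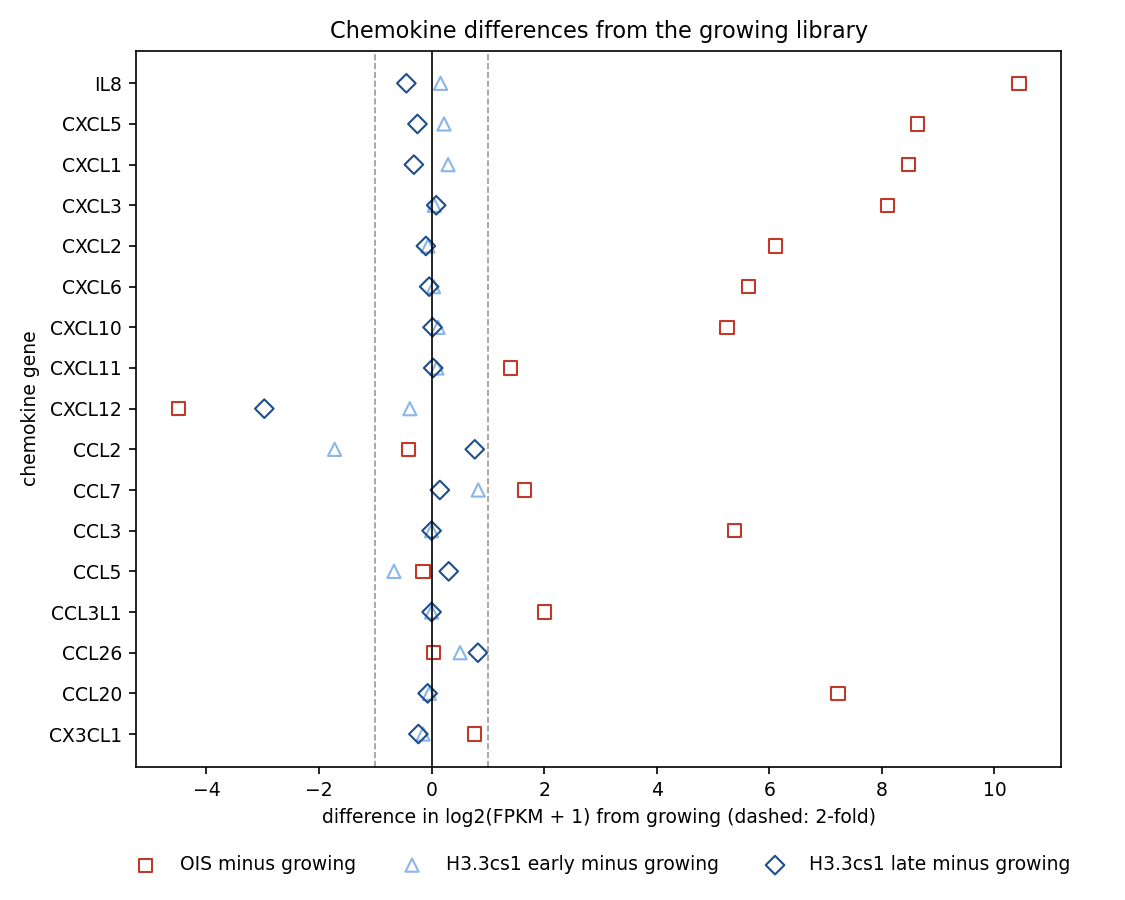
Difference in log2(FPKM + 1) from the growing library for the same 17 members, with squares for OIS, triangles for H3.3cs1 early and diamonds for H3.3cs1 late; dashed lines mark 2-fold. Squares run to 10.44 for IL8, while triangles and diamonds leave the dashed lines only at CCL2 (early, -1.72) and CXCL12 (late, -2.97).

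On day 13 of H3.3cs1 CXCL12 was lower than in growing cells, and the neutrophil chemokines stayed within 2-fold on the log2(FPKM + 1) scale. CXCL1 (log2 difference -1.37) and CX3CL1 (-1.11), each under 1 FPKM in both libraries, were also lower by the rule with a pseudocount of 0.1. With it CCL26 (2.16) and CCL28 were higher. In H3.3cs1 late 0 of the 46 members were higher than in growing and 1 was lower, beside 3.51% and 5.47% of the 12183 genes and 1.89% and 2.94% of all named genes. The median difference was 0 for the members and for all named genes. CXCL12 was 7.85-fold lower than in growing. IL8 was 1.36-fold lower, CXCL1 1.24-fold lower and CXCL5 1.19-fold lower, all within 2-fold, and 6 ligands of CXCR1 and CXCR2 other than IL8 stayed under 1 FPKM. CCL2 was 1.70-fold higher, and CCL26, an eotaxin that binds CCR3 on eosinophils, was at 0.155 FPKM in growing cells, 0.188 with OIS, 0.641 on day 3 and 1.04 on day 13 of H3.3cs1, a 1.77-fold difference in late. CCL26 was the only member at 1 FPKM or more in H3.3cs1 late alone.

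In H3.3cs1 early 0 of the 46 members were higher than in growing and 1 was lower, beside 1.4% and 3.96% of the 12183 genes and 0.754% and 2.13% of all named genes. Both medians were again 0. The lower member was CCL2, 3.3-fold below growing. CXCL12 was 1.31-fold lower and CCL5 1.59-fold lower, within 2-fold. CCL7 was 1.78-fold and CCL26 1.42-fold higher, and both passed the rule with a pseudocount of 0.1. The summed chemokine level was 54.5 FPKM in early, the lowest of the 4 libraries, and 145 FPKM in late.

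From day 3 to day 13 of H3.3cs1, CCL2 and CXCL12 moved in opposite directions. CCL2 was 5.62-fold higher and CXCL12 6.00-fold lower at day 13, and these were the 1 higher and the 1 lower of the 46 members, beside 5.47% and 3.4% of the 12183 genes and 2.94% and 1.83% of all named genes. CCL5 was 1.96-fold higher, just inside the rule, and passes it after centring or quantile normalization and with a pseudocount of 0.1. IL8 and CXCL1 were each 1.52-fold lower and CXCL5 1.39-fold lower. With that pseudocount CXCL1 (log2 difference -2.14), CCL7 (-1.91) and CXCL5 (-1.50) passed the rule.

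Set directly against H3.3cs1 late, OIS was higher in 12 of the 46 members and lower in 2, beside 11.2% and 8.51% of the 12183 genes and 6.01% and 4.57% of all named genes. IL8 was 1890-fold, CXCL5 471-fold and CXCL1 440-fold higher in OIS. CXCL2 and the pair CCL3 and CCL3L1 were listed at 0 in late, so no fold is given for them. The lower members were CXCL12 (2.88-fold) and CCL2 (2.26-fold). CX3CL1 was 1.995-fold higher in OIS, just under the rule, and passed it after quantile normalization (log2 difference 1.07) and with a pseudocount of 0.1 (2.92). The comparisons of OIS and of H3.3cs1 with growing share the growing library.

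The makeup of chemokine RNA also differed. Ligands of CCR2 held 66.8% of summed chemokine FPKM in growing cells and 42.6% and 90.1% on days 3 and 13 of H3.3cs1, and CCL2 made up nearly all of it. CXCL12 held 23.6%, 37.4% and 1.77% in the same order. In OIS ligands of CXCR1 and CXCR2 held 96.1%, of which IL8 alone was 78.2% of all chemokine FPKM, and the CCR2 ligands held 0.722%. Without IL8 the OIS sum was still 1791 FPKM. A share falls when another member rises, so the low CCR2 share of OIS goes with a CCL2 level within 2-fold of growing.

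**Figure D4:**
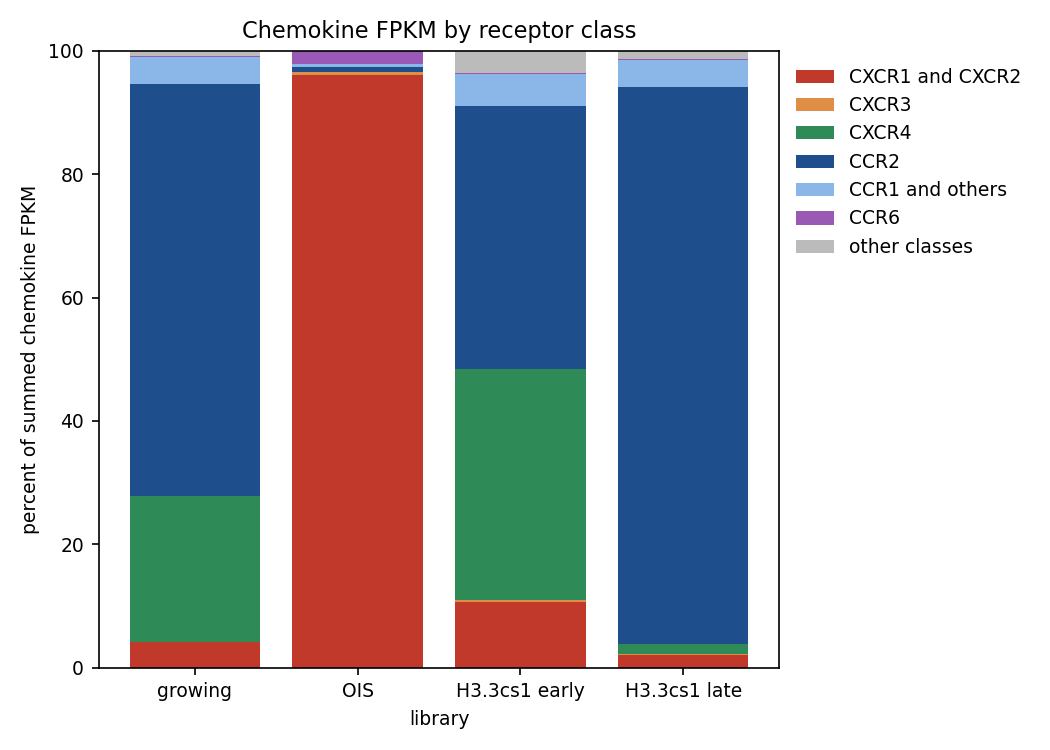
Percent of summed chemokine FPKM held by each receptor class in the 4 libraries, 1 bar a library. The CXCR1 and CXCR2 ligands fill 96.1% of the OIS bar and the CCR2 ligands 66.8% of growing and 90.1% of H3.3cs1 late.

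In RefSeq order the CXCR1 and CXCR2 ligands and the platelet factors form a block that runs IL8, CXCL6, PF4V1, CXCL1, PF4, PPBP, CXCL5, CXCL3 and CXCL2, and the rise in OIS was not even along it. IL8, CXCL6, CXCL1, CXCL5, CXCL3 and CXCL2 reached between 52.7 and 6433 FPKM, while PF4V1, PF4 and PPBP stayed between 0.305 and 0.395 FPKM. Those 3 genes, known from platelets, were listed at 0 in growing, and they pass the 2-fold rule with a pseudocount of 0.1. The gene next to IL8, RASSF6, was at 0.00554 FPKM in OIS. A second block, CCL2, CCL7, CCL11, CCL8, CCL13 and CCL1, held 1 gene that rose, CCL7, and 3 genes listed at 0 in all 4 libraries.

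**Figure D5:**
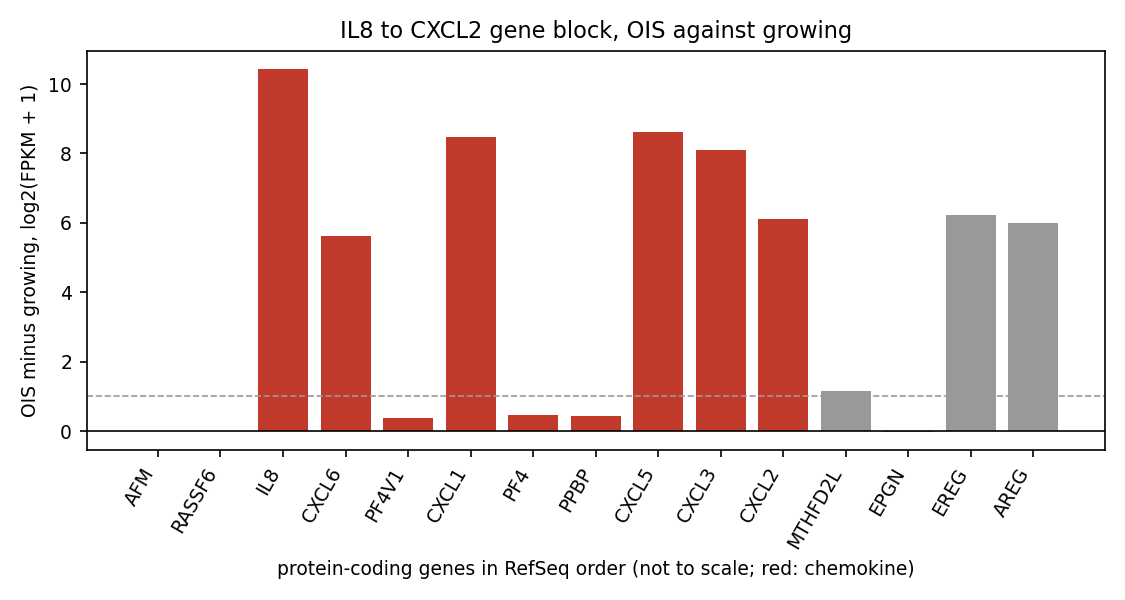
Difference in log2(FPKM + 1) between OIS and growing for the protein-coding genes around the IL8 to CXCL2 block, in RefSeq order and not to scale. Red bars are chemokines and grey bars other genes; the bars of PF4V1, PF4 and PPBP lie between 0.38 and 0.48, below the dashed 2-fold line on this scale, though they pass it with a pseudocount of 0.1.

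The receptors of these ligands were nearly undetected. Of 22 receptor genes, 4 atypical receptors among them, 2 reached 1 FPKM in a library. CCR10, the receptor of CCL27 and CCL28, was at 0.621 FPKM in growing cells, 2.95 with OIS, 1.88 on day 3 and 0.717 on day 13 of H3.3cs1. It was the 1 receptor called higher in OIS (2.44-fold), beside 4.9% of all named genes. CCR7 was at 0.329, 1.54, 0.312 and 0.860 FPKM. CXCR2, the receptor of the neutrophil ligands, was at 0.0110 FPKM in growing cells, 0.0137 with OIS and listed at 0 in both H3.3cs1 libraries, and CXCR4 was at most 0.161 FPKM.

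Genes of the enzymes that shed or trim chemokines rose in part in OIS. Of 12 genes 6 were higher and 0 lower in OIS (median 1.10), beside 4.9% and 4.39% of all named genes. In H3.3cs1 early 1 was higher and 1 lower, beside 0.754% and 2.13%. In H3.3cs1 late 0 were higher and 2 lower, beside 1.89% and 2.94%. Those in H3.3cs1 were DPP4 (higher, early) and MMP1 (lower, early), then MMP1 and ANPEP (lower, late). MMP14, counted as higher in OIS, was read from the joined locus MMP14,MRPL52, and MMP2, within 2-fold, from LPCAT2,MMP2. Reads of a joined locus cannot be assigned to either gene. MMP3, stromelysin, was at 2.83 FPKM in growing cells and 2226 with OIS. MMP12, a macrophage elastase that can trim chemokines with the Glu-Leu-Arg motif, was at 0.263 and 24.7 FPKM, and MMP1 at 416 and 7849. DPP4, a peptidase that inactivates CXCL12 and CXCL10, was at 8.49 FPKM in growing cells, 47.0 with OIS, 18.0 on day 3 and 17.1 on day 13 of H3.3cs1, and rose 5.06-fold in OIS. ADAM10 (46.0 and 39.5 FPKM in growing and OIS) and ADAM17 (9.28 and 9.40 FPKM), which shed CX3CL1 and CXCL16, stayed within 2-fold.

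Genes of inducing cytokines, NF-kappaB and their regulators, inhibitors among them, were mostly higher in OIS and not in H3.3cs1. Of 17 such genes 12 were higher and 0 lower in OIS (median 1.78), while 4.9% and 4.39% of all named genes were. The 12 included the NF-kappaB inhibitors TNFAIP3 (5.22-fold) and NFKBIA (3.62-fold), and NFKBIZ, read from the joined locus NFKBIZ,NXPE3. The counts were 0 and 0 in H3.3cs1 early and 0 and 2 in H3.3cs1 late, where the lower genes were TNFAIP3 and NFKBIA. Over all named genes 0.754% and 2.13% were higher and lower in early, and 1.89% and 2.94% in late. The NF-kappaB subunit RELB missed the rule narrowly in late, at 5.24 FPKM in growing cells and 2.12 on day 13. IL1B was at 1.74 FPKM in growing cells, 2869 with OIS, 2.50 on day 3 and 1.22 on day 13 of H3.3cs1. IL1A was at 0.0634, 41.0, 0.122 and 0.0222 FPKM. ZC3H12A, a ribonuclease that degrades cytokine transcripts, was at 2.09 FPKM in growing cells and 70.1 with OIS. RELA, the main NF-kappaB subunit, was at 39.7 and 52.6 FPKM, within 2-fold, while TNF was at 0.0451 FPKM in OIS and listed at 0 elsewhere.

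The fibroblast markers COL1A1, COL1A2 and VIM were between 691 and 5172 FPKM in every library, and 6 of 11 fibroblast markers were lower in OIS. Over the 12183 genes 8.17% were lower in OIS, and over all named genes 4.39%. From day 3 to day 13 of H3.3cs1, where CCL2 and CXCL12 differed, 5 fibroblast markers were higher and 1 lower. The shares of the 12183 genes were 5.47% and 3.4%. Markers of leukocytes, a usual source of chemokines, were near 0: 11 of them were each at most 0.296 FPKM and summed to between 0.327 and 0.663 FPKM, with PTPRC at 0.00619 FPKM in OIS, without the joined CD68,MPDU1 locus. That locus, whose reads cannot be assigned to either gene, was at 56.2, 89.4, 52.3 and 39.3 FPKM and was 2.24-fold higher in OIS than in H3.3cs1 late. Of 10 endothelial markers 3 were higher in OIS, beside 9.13% of the 12183 genes and 4.9% of all named genes. The endothelial list summed to 3.32 FPKM in growing cells, 22.5 with OIS, and 2.53 and 1.52 on days 3 and 13 of H3.3cs1. CLDN5 rose from 0.178 to 11.6 FPKM, TIE1 from 0.631 to 4.05 and ROBO4 from 1.19 to 4.47, while PECAM1 was at 0.115 FPKM and CDH5 and KDR were listed at 0. Of 10 epithelial markers 0 were higher and 2 lower in OIS, beside 4.9% and 4.39% of all named genes. The epithelial list summed to 93.3, 24.4, 76.0 and 189 FPKM in the same order. Most of each sum was KRT18, at 80.0, 13.1, 50.9 and 170 FPKM, while EPCAM was at most 0.495 FPKM and CDH1 at most 0.116. Against growing, 2 were higher in H3.3cs1 early (KRT19 and CLDN4), 2 in late (KRT18 and MUC1), and 0 were lower in either. Over all named genes 0.754% were higher in early and 1.89% in late, and 2.13% and 2.94% were lower. The part of these markers in the chemokine results was not tested.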

How the data were processed

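FPKM values were deposited by the authors, 1 per locus and library, in 4 files. TopHat2 2.0.3, Bowtie2, Cufflinks 2.1.1 and hg19 are named in the submitters' processing notes without role or order. Strand handling, annotation and the treatment of multiply mapped reads were not given in the sources used here. Header words in the files are shifted by 1 column, so each library's group came from its label. From low values, depth relative to growing was roughly 84.1% (OIS) and, for days 3 and 13 of H3.3cs1, 95.9% and 78.5%; absolute depth is unknown. Lines with no gene name (2310) were left out, and a symbol on several lines took their sum. Differences used log2(FPKM + 1), with Python 3.11.15 and pandas 2.3.3; with 1 library a group no test was made. Members under 1 FPKM in every library are named without a fold. A listed 0 can be a failed estimate: 63 to 87 of the 12183 genes were at 0 in a library. After rescaling named genes to one sum, the median difference from growing of all genes was -0.16 with OIS, and 0.19 and -0.03 on days 3 and 13 of H3.3cs1. Alternatives were a pseudocount of 0.1, rescaling, centring, quantile normalization, the highest line of a symbol, and 1.5-fold and 4-fold rules. Every member at 1 FPKM or more in a library is named. Members and gene lists were chosen with earlier results of these data known. One planned item is not reported here. The fold rule was tested on simulated data, where only genes well above 0 in growing cells were changed, each by more than the rule asks. Its noise was set by hand, so it does not cover members near 0 in growing or the spread between replicates.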

Additional observations from a re-analysis of the deposited data

How the results depend on the processing

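No paired analysis was possible because each group has 1 library, and for the same reason no library could be left out. With a pseudocount of 0.1 FPKM, 46 of 85 differences of the 17 members stayed within 1.5-fold and 39 moved further. Under rescaling, centring, quantile normalization and the highest line of a symbol, all 85 stayed within 1.5-fold. Some of these settings could hardly do otherwise. Centring shifts a comparison by at most 0.0917 in log2, and only CCL3L1 lies on several lines. Across all these settings 0 of the called values changed sign. Shares over all genes were taken under the main rule only, so the counts under other settings have none beside them. In OIS against growing 12 were higher and 1 lower, and 18 and 3 with a pseudocount of 0.1. These were 13 and 1 at 1.5-fold, and 10 and 1 at 4-fold, where CCL7 and CXCL11 dropped out. In H3.3cs1 early against growing 0 were higher and 1 lower; these became 4 and 2 with that pseudocount, 1 and 2 at 1.5-fold, and 0 lower at 4-fold. In H3.3cs1 late against growing 0 and 1 became 2 and 3 with that pseudocount, and 2 were higher at 1.5-fold. In H3.3cs1 late against early 1 and 1 became 4 and 5 with that pseudocount, and 2 and 4 at 1.5-fold; 2 were higher after centring and after quantile normalization. In OIS against H3.3cs1 late 12 higher and 2 lower became 18 and 7 with that pseudocount, and 13 were higher after quantile normalization. The counts were 13 and 3 at 1.5-fold, and 10 and 0 at 4-fold. The smaller pseudocount added members under 1 FPKM in every library (CCL4, CCL13, CCL24, CCL25, CCL28, CXCL9, CXCL16, PF4, PF4V1 and PPBP) and also CCL5, CCL7, CCL26, CX3CL1, CXCL1 and CXCL5, which reach it in a library. The median difference between OIS and growing is 0 over 46 members and 5.25 over the 17 at 1 FPKM or more, most of which passed that minimum through OIS. Depth limits what values under 1 FPKM show.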

Other observations

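Genes beside the IL8 to CXCL2 block were looked at after their values were seen. Past CXCL2 in RefSeq order come MTHFD2L, EPGN, EREG and AREG. The EGF receptor ligand EREG was at 0.200 FPKM in growing cells, 89.7 with OIS, 0.548 on day 3 and 0.195 on day 13 of H3.3cs1, and AREG, a ligand of the same receptor, at 0.0825, 68.5, 0.0425 and 0.135 FPKM. They were 75.6-fold and 64.2-fold higher in OIS. EPGN, between MTHFD2L and EREG and of the same ligand family, was at 0.0395 FPKM before and 0.0236 with OIS, and MTHFD2L, a mitochondrial folate enzyme, was 2.25-fold higher. On the other side of IL8, RASSF6 and AFM were at 0.00554 and 0 FPKM in OIS. Around the CXCL9 to CXCL11 genes, NAAA, SDAD1 and NUP54 lay within 2-fold of growing in OIS, and ART3, between CXCL9 and CXCL10, was at 0.0521 FPKM in growing cells and 0.513 with OIS.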
